A study of Mus musculus with 12 samples.

Results

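Expression of the genes that build N-linked glycans and glycosylphosphatidylinositol (GPI) anchors was followed after skin wounding in the mouse. The members were the probe sets whose RefSeq accession belongs to a gene named Alg, Mgat, Stt3, Dpm, Man1a, Man1b, Man1c or Man2a with any ending, or Pig plus 1 letter, or to Dpagt1, Rpn1, Rpn2, Ddost, Mogs, Ganab, Prkcsh, Uggt1 or Uggt2. This took 34 probe sets for 34 genes, of 1246 probe sets in all. The RefSeq table holds 64 symbols that fit these names, and those without a named probe set, such as Stt3a and Mogs, were not analysed here.

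Single-colour arrays were run on 12 samples, whose titles begin with B6. Non-wounded skin gave 4 samples. Wounded skin gave 2 samples at 30 min, 4 at 2 h, and a single one at both 0 h and 4 h. The labels give no age, no wound size and no pooling. They name dendritic epidermal T cells (DETC), the resident T cells of mouse epidermis, whereas the design text speaks of the whole epidermis, which is mostly keratinocytes. Without wounding, Lgals7, a galectin of keratinocytes, was at 12.08 ± 0.27 on the log2 scale (SD, n = 4). The antigen presentation chain Cd74 was at 10.78 ± 0.45 and the T cell surface molecule Cd2 at 4.77 ± 0.22. Of 16 T cell marker genes listed, 5 were measured, and the defining CD3 chains were not among them. Lgals7 and Cd74 were the brightest of their marker lists. The lowest mean was 3.73 (Cd209d) among Langerhans and dendritic cell markers. Among keratinocyte markers it was 4.73 (Egfr, with a second probe set at 7.28). T cell markers lay between 2.38 (Klrk1) and 5.32 (Itgae). These are levels of different probe sets and give no cell shares, and which cells the samples held was not tested. In bulk samples, fewer cells of a type and less RNA per cell cannot be told apart.

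N-glycans are assembled on the membrane lipid dolichol. Dpagt1 starts the chain with a sugar phosphate, enzymes named Alg add mannose and glucose, and the oligosaccharyltransferase moves the finished chain onto new proteins in the endoplasmic reticulum (ER). Glucosidases and the folding sensor Uggt1 then trim and check the glycoprotein, and Golgi mannosidases and Mgat enzymes reshape and branch the glycan. GPI anchors, which hold many surface proteins in the membrane, are built in the ER by enzymes named Pig, and Piga is the catalytic subunit of the first step. In skin, both routes supply adhesion molecules, growth factor receptors and lectin ligands.

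Promoter windows of 250 bases before to 50 after the start of transcription were available from RefSeq (build GRCm38.p6) for 28 of the 34 genes. The windows were searched on both strands for CCAAT, for CCACG, and for the ER stress element, which is CCAAT followed after any 9 bases by CCACG. It contains both shorter motifs and is known from genes of the unfolded protein response. The shorter ER stress element II, which is ATTGG followed after any 1 base by CCACG, and the letters TGACG were also searched. Alg2, Dpagt1, Man2a2, Mgat3, Mgat4b and Pigm had no window and were not searched. Among the 28 searched genes, Alg12 alone had the full ER stress element, which 0.119% of all 32851 windows held. Some genes have more than 1 window, and the 28 genes had 38 in all. CCAAT was in 19 of the 38 member windows (50%), beside 37.4% of all windows, and CCACG in 19 (50%), beside 32.8%. ER stress element II was in none of the 38 member windows and 0.0365% of all, and TGACG was in 7 of them (18.4%) and 20.8% of all. The windows of 4 members described below follow, 5′ to 3′ on the strand of the gene, with CCAAT and CCACG on either strand in capitals. They show Alg12 with its ER stress element at base 31, the mannosyltransferase Alg9, Ddost with both motifs, and Piga. They lie on chr15:88819269-88819568 (minus strand), chr9:50774975-50775274 (plus), chr4:138304488-138304787 (plus) and chrX:164419530-164419829 (plus). A match describes these letters only.
Alg12: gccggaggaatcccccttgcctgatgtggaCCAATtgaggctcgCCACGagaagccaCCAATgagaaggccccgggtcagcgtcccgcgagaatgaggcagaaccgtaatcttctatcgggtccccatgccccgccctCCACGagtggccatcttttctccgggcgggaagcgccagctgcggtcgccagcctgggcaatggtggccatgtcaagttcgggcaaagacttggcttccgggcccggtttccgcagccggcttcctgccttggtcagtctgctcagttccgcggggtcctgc
Alg9: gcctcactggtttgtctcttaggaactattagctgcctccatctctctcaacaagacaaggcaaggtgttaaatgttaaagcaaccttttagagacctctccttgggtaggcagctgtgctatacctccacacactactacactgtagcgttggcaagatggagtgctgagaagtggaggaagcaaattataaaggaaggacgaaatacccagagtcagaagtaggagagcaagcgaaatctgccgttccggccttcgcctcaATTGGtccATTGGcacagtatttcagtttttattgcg
Ddost: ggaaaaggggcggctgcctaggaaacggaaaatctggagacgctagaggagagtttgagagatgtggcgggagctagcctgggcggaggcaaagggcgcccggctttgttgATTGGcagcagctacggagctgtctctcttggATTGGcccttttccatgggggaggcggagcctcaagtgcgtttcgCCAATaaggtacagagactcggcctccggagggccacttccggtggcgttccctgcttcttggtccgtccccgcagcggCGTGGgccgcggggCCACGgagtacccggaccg
Piga: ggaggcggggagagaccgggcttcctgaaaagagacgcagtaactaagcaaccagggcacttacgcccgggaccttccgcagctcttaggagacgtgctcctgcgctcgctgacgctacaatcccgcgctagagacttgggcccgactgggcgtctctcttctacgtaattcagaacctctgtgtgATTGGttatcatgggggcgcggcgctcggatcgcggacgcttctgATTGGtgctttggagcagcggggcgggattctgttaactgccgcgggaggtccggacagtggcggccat

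The 5 samples numbered 1 in the titles stood apart from those numbered 2 to 4. The SD of the log2 values over the 34 members was 1.22 to 1.56 in samples numbered 1 and 2.00 to 2.09 in the other 7. Within the non-wounded group, 20 members were lower in sample 1 than in all 3 others and 9 were higher, while over all probe sets 30.7% were lower and 53.5% higher. The corresponding numbers at 2 h were 20 and 12 members, beside 39.6% and 49.7% of all probe sets. The widest gap was at the Golgi mannosidase Man2a1, which lay 2.77 lower on the log2 scale in non-wounded sample 1 than in the mean of the others. At 0 h and at 4 h the single sample was numbered 1, and the 30 min group held 1 of each kind. The results below are therefore also given for the samples numbered 2 to 4, and for each wounded sample against the non-wounded samples of its own kind.

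The first comparison asked which members differed between 2 h and no wounding. No filter on low values was used, so all 34 members were tested. No member passed the limma test at an adjusted p under 0.05, in a comparison that called 0.241% of all probe sets. At an unadjusted p under 0.05 there were 2 members, Alg12 and Mgat4b, both lower, and 4.65% of all probe sets. Of the 34 members, 20 were lower and 14 higher, where 45.5% of all probe sets were lower and 54.5% higher. After scaling all samples to a common median and SD, 24 members were lower and 10 higher, beside 789 and 457 of all 1246 probe sets. The median log2 difference was -0.04, beside 0.03 for all probe sets. With array weights, which let noisy samples count less, 3 members passed (Alg12, Alg2 and Mgat4b), or 8.82% beside 10.4% of all probe sets. With the replicate number as a block the count of members called stayed at 0, with 1.36% of all probe sets called and 5 of 34 members at an unadjusted p under 0.05, beside 172 of 1246 probe sets.

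Alg12, a mannosyltransferase that extends the dolichol-linked chain in the ER lumen, had log2 values of 5.60, 5.73, 5.72 and 5.98 in non-wounded samples 1 to 4 and of 4.81, 5.44, 5.09 and 5.41 in 2 h samples 1 to 4. Every 2 h sample was below every non-wounded sample. The difference was -0.57 ± 0.23 (SE), a 1.48-fold lower level (limma unadjusted p = 0.034, adjusted p = 0.854). Over samples 2 to 4 alone it was -0.49 ± 0.13 (limma adjusted p = 0.116), and between the pair numbered 1 it was -0.79. It was at 4.34 and 5.21 in the 30 min samples, at 5.25 in the 0 h sample and at 4.76 in the 4 h sample. All 8 wounded samples thus lay below all 4 non-wounded samples, a pattern that was seen in 1 of 34 members and in 0.562% of all probe sets.

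Mgat4b, which adds a branch to the mannose core in the Golgi, was at 6.25, 6.23, 6.53 and 6.39 without wounding and at 5.96, 6.02, 5.80 and 6.12 at 2 h. The groups did not overlap, and their spreads were small (SD 0.14 and 0.13). The difference was -0.38 ± 0.15 (limma unadjusted p = 0.034, adjusted p = 0.854), but -0.18 after quantile normalization, and -0.40 ± 0.12 in the samples numbered 2 to 4 (adjusted p = 0.157). The 30 min samples were at 6.12 and 6.40, of which the second lay inside the non-wounded range. The 0 h sample was at 6.51 and the 4 h sample at 5.76.

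Dpagt1, the target of tunicamycin and the enzyme that commits dolichol to N-glycan synthesis, was at 7.01, 7.35, 7.02 and 7.01 without wounding and at 6.39, 6.79, 6.75 and 6.96 at 2 h. These groups did not overlap either, but sample 4 at 2 h was close to the lowest non-wounded value. The difference was -0.38 ± 0.34 (limma adjusted p = 0.998), -0.12 after quantile normalization, and -0.30 ± 0.12 in the samples numbered 2 to 4 (adjusted p = 0.265). Alg12, Mgat4b and Dpagt1 were the 3 members (8.82%) with every 2 h sample lower than every non-wounded one, beside 2.73% of all probe sets. No member had every 2 h sample higher, beside 2.01% of all probe sets.

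**Figure D1:**
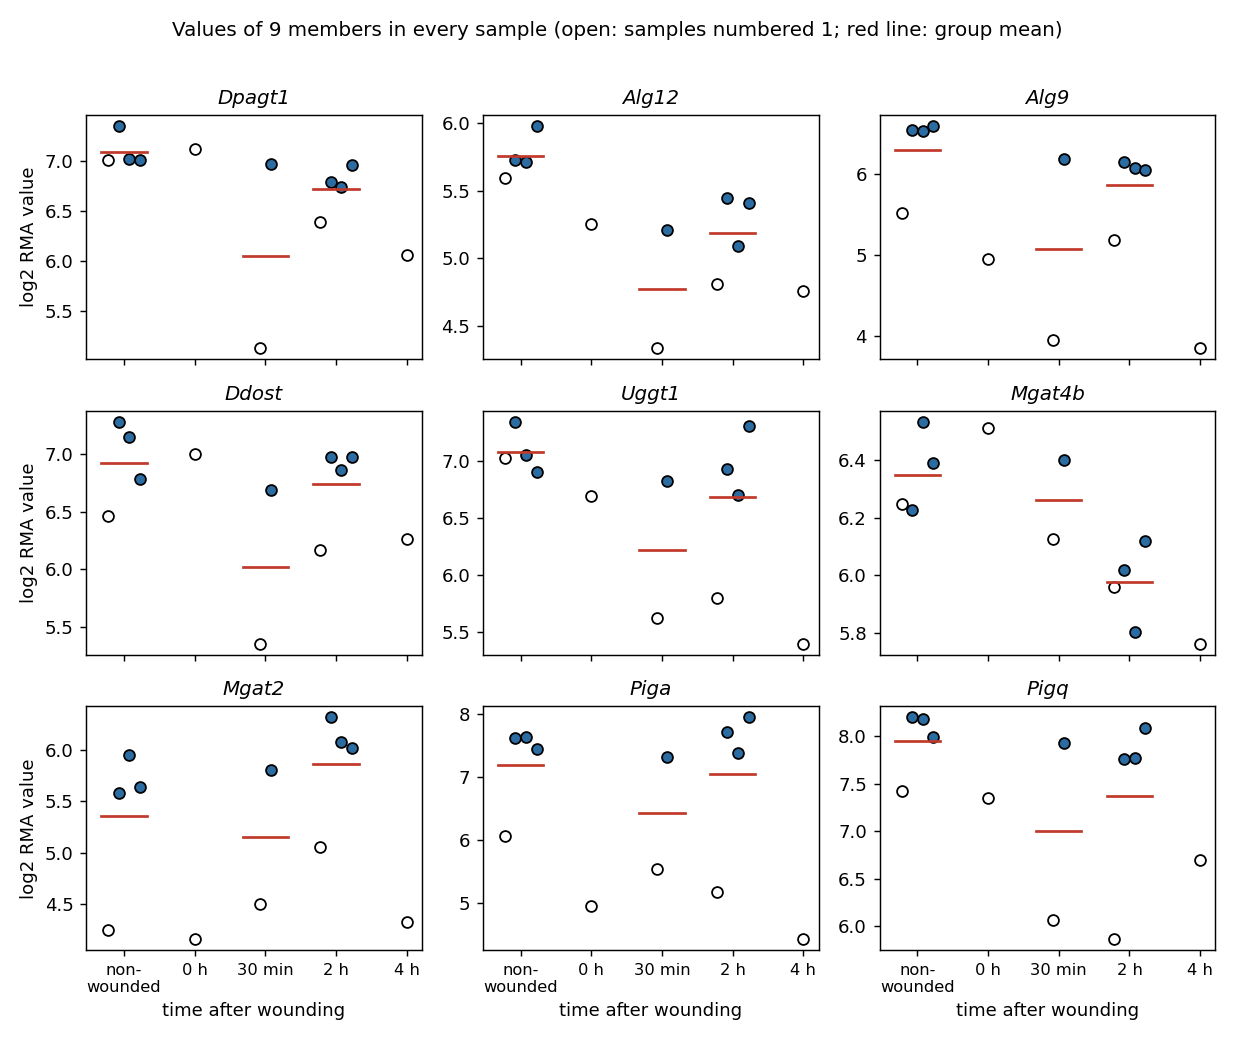
Log2 RMA values (vertical axes, a separate range for each gene) of 9 members in each of the 12 samples, by time after wounding. Open circles are the samples numbered 1, filled circles those numbered 2 to 4, and red lines the group means; for Alg12 every wounded sample lies below the lowest non-wounded value of 5.60, and for Piga the samples numbered 1 lie far below the others.

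Most of the dolichol steps were lower at 2 h by group means. Of the 12 measured members of lipid-linked oligosaccharide assembly, 10 were lower and 2 higher, beside 45.5% of all probe sets lower. Their median was -0.20, and none passed the test. Among the lower ones, Alg6 (-0.0011), Dpm1 (-0.02) and Dpm2 (-0.05) hardly differed. The split was also 10 and 2 after that scaling (median -0.18) and after quantile normalization (median -0.09). Of all 1246 probe sets, 789 and 662 were lower in these settings. In the samples numbered 2 to 4 the split was 8 lower and 4 higher, beside 555 of 1246 probe sets lower. The median there was -0.24, beside 0.03 for all probe sets. Every 2 h sample lay below every non-wounded one, among these, for 6 of the 34 members (17.6%) and 10.4% of all probe sets, and above for 2 members (5.88%) and 14.7%. Alg9, a mannosyltransferase that acts next to Alg12, was the one member that passed there. It was at 6.56, 6.54 and 6.60 in non-wounded samples 2 to 4 and at 6.15, 6.08 and 6.06 in 2 h samples 2 to 4. It fell by 0.47 ± 0.07 on the log2 scale in these 6 samples (limma adjusted p = 0.0283). The share called there was 2.94% of members, beside 3.05% of all probe sets. The samples numbered 1 were at 5.53 without wounding and 5.19 at 2 h, and over all samples Alg9 was at -0.43 ± 0.47 (adjusted p = 0.998).

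Other dolichol enzymes gave smaller or less even differences. Alg2, which adds early mannoses on the cytosolic face, was at -0.41 ± 0.38 in all samples and -0.45 ± 0.13 in those numbered 2 to 4 (limma adjusted p = 0.998 and 0.157). The glucosyltransferase Alg8 was at 5.43, 5.66, 5.65 and 5.49 without wounding and at 5.38, 5.35, 5.21 and 5.55 at 2 h. Its groups overlapped only through 2 h sample 4, and the difference was -0.19 ± 0.16 (adjusted p = 0.998). The glucosyltransferase Alg6 was between 2.60 and 2.98 without wounding and between 2.71 and 3.23 at 2 h. Dpm2, a regulatory subunit of the enzyme that makes dolichol-phosphate-mannose, was between 7.53 and 7.93 without wounding and between 7.08 and 7.99 at 2 h. Neither of these last genes separated the groups.

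Lists of cell type markers were read as well, in a comparison where 54.5% of all probe sets were higher at 2 h. By group means at 2 h, 5 of 5 measured keratinocyte markers were lower, and their summed level, given as log2, ran from 12.08 to 12.75 without wounding and from 11.43 to 12.59 at 2 h. Dermal fibroblast markers were higher in 7 of 7 genes, with summed levels of 6.69 to 7.31 and 7.17 to 7.44. Neutrophil markers were higher in 6 of 6 genes, with summed levels of 8.42 to 10.36 and 8.83 to 10.51, and endothelial markers in 3 of 3, with 4.58 to 4.90 and 4.71 to 5.21. Mixed lists were T cell markers, higher in 3 of 5 genes, Langerhans and dendritic cell markers, in 2 of 5, and monocyte and macrophage markers, in 5 of 7. By probe set, after scaling to a common median and SD, neutrophil markers were 3 higher and 4 lower, and fibroblast markers 6 and 2. Keratinocyte markers were then 1 higher and 5 lower, and endothelial markers 3 and 0. None of these markers passed the test in the first fit, on the deposited values of all samples without a block. In fits without a block, 1 Langerhans and dendritic cell marker rose after quantile normalization (limma adjusted p = 0.0404). So did 1 in the samples numbered 2 to 4 (limma adjusted p = 0.0104). With the replicate block 1 keratinocyte marker fell and 1 Langerhans and dendritic cell marker rose (limma adjusted p = 0.0448 for each). Their part in the values of the glycan genes was not tested.

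The oligosaccharyltransferase and the ER folding check showed no member past the test at 2 h. Of its 3 measured subunits, Rpn2 was at 6.12, 8.10, 7.79 and 7.57 without wounding and at 5.65, 7.77, 7.55 and 7.66 at 2 h. Rpn1 was at 3.48, 3.47, 3.58 and 3.30 without wounding and at 4.33, 3.59, 3.39 and 3.50 at 2 h, so that its log2 difference of 0.24 ± 0.26 (limma adjusted p = 0.998) came down to 0.04 without the samples numbered 1. Uggt1, which re-glucosylates misfolded glycoproteins so that they stay in the ER, was at 7.03, 7.35, 7.06 and 6.91 without wounding and at 5.80, 6.94, 6.71 and 7.31 at 2 h. Only 2 h sample 1 was far below the rest, and the difference went from -0.40 ± 0.35 over all samples to -0.12 ± 0.18 in those numbered 2 to 4. Its relative Uggt2 was at 3.39, 2.92, 2.88 and 2.67 without wounding and at 3.35, 2.95, 2.77 and 2.98 at 2 h. Ganab, the catalytic subunit of glucosidase II, lay between 6.39 and 6.98 without wounding and between 6.21 and 6.82 at 2 h.

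**Figure D2:**
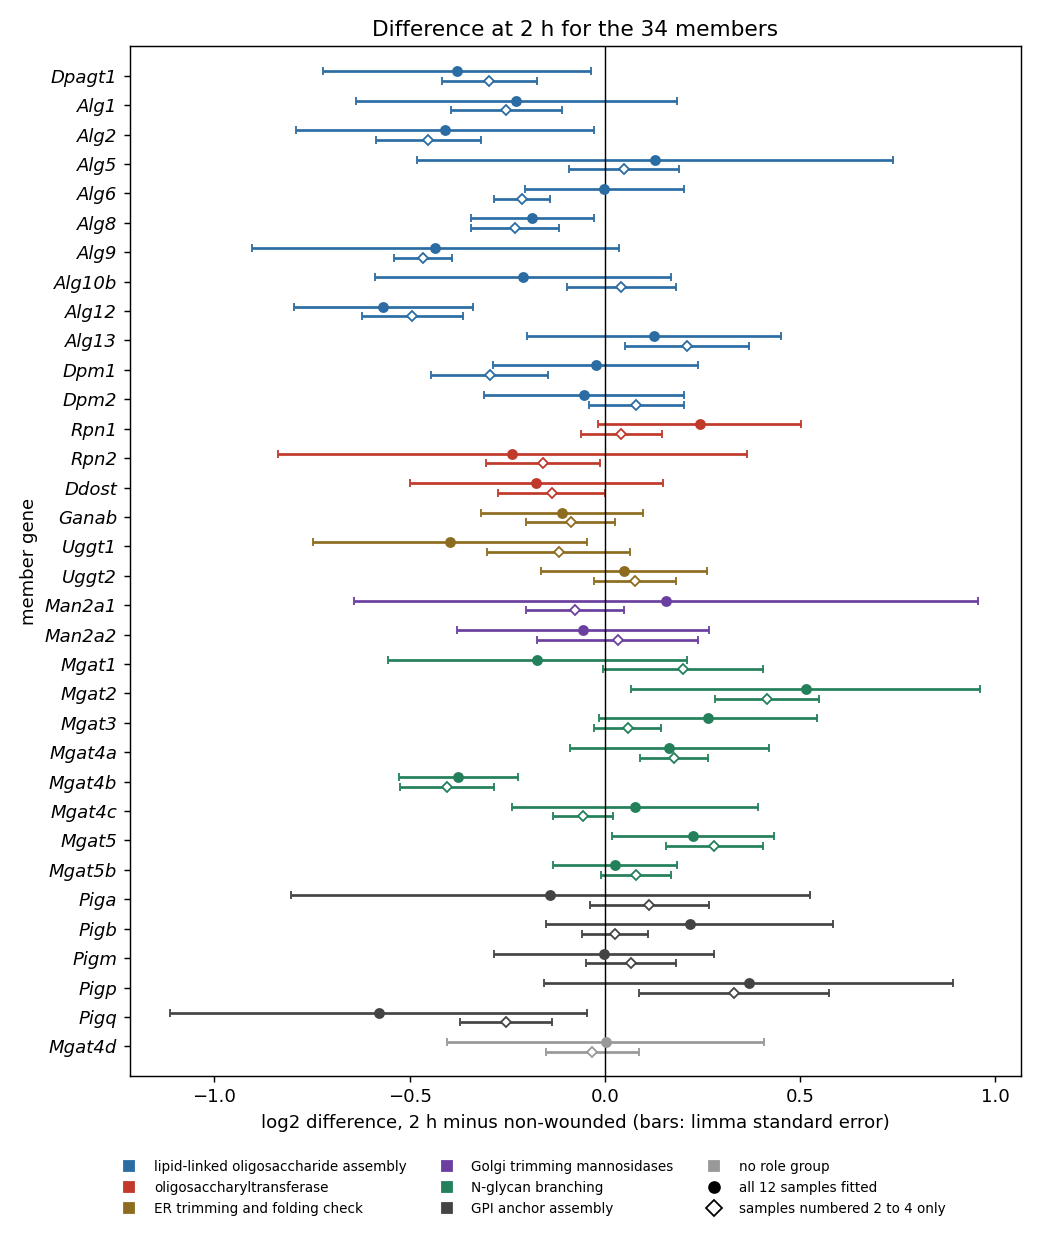
Log2 difference between 2 h and non-wounded samples (horizontal axis) for each of the 34 members, coloured by role group, with the limma standard error as bars. Filled circles use all 12 samples and open diamonds only the samples numbered 2 to 4; the bars of Alg9 narrow from 0.47 to 0.07 when the samples numbered 1 are left out.

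Branching enzymes of the Golgi gave a split that depended on the scaling. Of the 8 measured Mgat genes with a role in branching, 6 were higher and 2 lower at 2 h, beside 54.5% of all probe sets higher. Their median was 0.12, and none passed the test. The split was 4 and 4 after scaling to a common median and SD (median -0.0085). It was 5 higher and 3 lower after quantile normalization (median 0.05). Of all 1246 probe sets, 457 and 582 were higher in these settings. Mgat2, which opens the second arm of complex glycans, was at 4.24, 5.58, 5.96 and 5.64 without wounding and at 5.05, 6.32, 6.08 and 6.02 at 2 h. The 2 h samples numbered 2 to 4 were above all non-wounded samples and 2 h sample 1 was not. The difference was 0.51 ± 0.45 (limma adjusted p = 0.998), 0.42 ± 0.13 in the samples numbered 2 to 4 (adjusted p = 0.169) and 0.81 between the pair numbered 1. Mgat5, which makes the branch that galectins favour, was at 4.76, 4.50, 4.27 and 4.10 without wounding and at 4.83, 4.52, 4.49 and 4.69 at 2 h, a log2 difference of 0.23 ± 0.21 (adjusted p = 0.998). Mgat1, which starts all hybrid and complex glycans, was at 8.07, 8.36, 8.02 and 7.66 without wounding and at 6.78, 8.13, 8.01 and 8.50 at 2 h. Its low value in 2 h sample 1 had no counterpart in the others. Mgat4c was low in all of these samples, between 2.25 and 2.52 without wounding and between 2.16 and 3.00 at 2 h.

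The gap between sample numbers was wider than any difference with wounding for Man2a1. This enzyme, which removes the last mannoses before complex branching, was at 5.71 in non-wounded sample 1 and 8.30 to 8.73 in the others, and at 6.56 in 2 h sample 1 and 8.32 to 8.46 in the others. Its log2 difference at 2 h was 0.16 ± 0.80 over all samples (limma adjusted p = 0.998) and -0.08 ± 0.13 in those numbered 2 to 4. Its relative Man2a2 was at 3.78, 4.75, 4.43 and 4.17 without wounding and at 3.46, 4.62, 4.12 and 4.72 at 2 h.

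Of the 5 measured GPI genes, 2 were higher and 3 lower at 2 h (median -0.0019), beside 54.5% of all probe sets higher. In the samples numbered 2 to 4 they were 4 higher and 1 lower (median 0.07), beside 691 of 1246 probe sets higher. None passed the test in either. Piga was at 6.07, 7.62, 7.64 and 7.45 without wounding and at 5.17, 7.71, 7.38 and 7.95 at 2 h. The samples numbered 2 to 4 overlapped fully, and the sample numbered 1 was lowest in each group. The difference was -0.14 ± 0.66 over all samples and 0.11 ± 0.15 in those numbered 2 to 4 (limma adjusted p = 0.998 and 0.725). Pigq, another subunit of the enzyme that Piga serves, was at 7.42, 8.20, 8.18 and 7.99 without wounding and at 5.86, 7.76, 7.77 and 8.08 at 2 h. Its difference of -0.58 ± 0.53 became -0.25 ± 0.12 in the samples numbered 2 to 4. Pigp, a small subunit of the same enzyme, went the other way, with 6.65, 7.89, 8.76 and 8.63 without wounding and 7.13, 8.89, 8.90 and 8.49 at 2 h (log2 difference 0.37 ± 0.52, adjusted p = 0.998). The mannosyltransferase Pigm was between 2.85 and 3.93 without wounding and between 2.89 and 3.72 at 2 h.

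The second comparison set 30 min against no wounding. No member passed the limma test, which called 0% of all probe sets, and 3 members (Alg12, Dpagt1 and Ddost, all lower) had an unadjusted p under 0.05, beside 5.06% of all probe sets. Of the members 21 were lower and 13 higher, beside 46.2% and 53.8% of all probe sets. Their median was -0.21, beside 0.04 for all probe sets. After quantile normalization the split was 17 and 17 and the median -0.0123. In 30 min sample 2, set against the mean of non-wounded samples 2 to 4, 22 members were lower with a median of -0.08, and none differed by 1 or more. In 30 min sample 1, set against non-wounded sample 1, 7 members were lower and 5 higher by 1 or more. The larger differences at 30 min thus rest on sample 1. Its reference was a single sample and that of sample 2 a mean, so the 2 spreads are not directly comparable. The matching counts over all probe sets are not given here.

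Dpagt1 was at 5.13 in 30 min sample 1 and 6.98 in sample 2, both below the lowest non-wounded value of 7.01, the latter by less than the spread of that group. Its log2 difference was -1.05 ± 0.42 (limma unadjusted p = 0.0324, adjusted p = 0.735), but -0.15 ± 0.17 without the samples numbered 1 (adjusted p = 0.98). Alg12 was at -0.98 ± 0.28 (unadjusted p = 0.00609, adjusted p = 0.735) and at -0.60 ± 0.18 without the samples numbered 1, where it was the member with the lowest difference (adjusted p = 0.976). Alg9 was at 3.95 and 6.19 and Ddost, an oligosaccharyltransferase subunit, at 5.36 and 6.68 in 30 min samples 1 and 2. Their differences were -1.23 ± 0.57 and -0.90 ± 0.40 (adjusted p = 0.735 for each), and -0.37 and -0.39 without the samples numbered 1. Uggt1 was at 5.62 and 6.83, a difference of -0.86 ± 0.43 (adjusted p = 0.735). Alg12, Dpagt1 and Uggt1 were the members (8.82%) with both 30 min samples lower than every non-wounded sample, beside 5.14% of all probe sets. None had both higher, beside 2.49% of all probe sets.

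**Figure D3:**
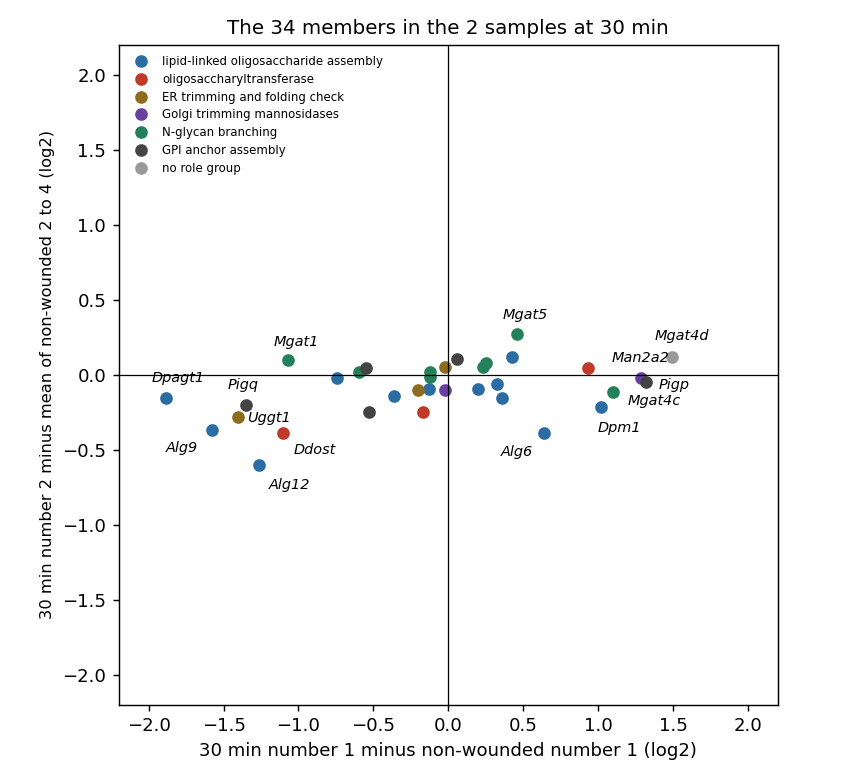
Each point is 1 of the 34 members, coloured by role group. The horizontal axis gives the log2 difference of 30 min sample 1 from non-wounded sample 1, from -1.89 (Dpagt1) to 1.496 (Mgat4d), and the vertical axis that of 30 min sample 2 from the mean of non-wounded samples 2 to 4, from -0.60 (Alg12) to 0.28 (Mgat5), on the same scale.

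The other role groups were uneven at 30 min. Of the 12 dolichol-step members 9 were lower, with a median of -0.29, beside 46.2% of all probe sets lower. After quantile normalization, however, 6 were lower and 6 higher (median 0.011), beside 619 of 1246 probe sets lower. Branching enzymes had 4 lower and 4 higher. Mgat5 was at 5.22 and 4.57 in the 30 min samples (log2 difference 0.49 ± 0.25, limma adjusted p = 0.735) and Mgat4c at 3.63 and 2.15 (0.56 ± 0.39, adjusted p = 0.737). Mgat4d, a relative of the Mgat4 enzymes that was placed in no role group, was at 4.59 in 30 min sample 1 and 2.58 in sample 2, beside 2.22 to 3.10 without wounding. Man2a1 was at 5.69 and 8.38 (-0.75 ± 0.98, adjusted p = 0.793). Among GPI genes Pigq was at 6.07 and 7.92 (-0.95 ± 0.65, adjusted p = 0.737) and Piga at 5.53 and 7.32 (-0.76 ± 0.81, adjusted p = 0.769). For Man2a1, Pigq and Piga the low value was that of sample 1. When 30 min sample 2 was left out, so that the lone sample was assumed to vary like the other groups, 4 members passed (Alg12, Alg9, Dpagt1 and Mgat4d), or 11.8% of members beside 5.94% of all probe sets. The summed keratinocyte markers of that sample 1 were at 11.24 and of sample 2 at 12.47, and their part in these differences was not tested.

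Set directly against each other, the 2 h and 30 min samples gave no member past the limma test, which called 0% of all probe sets. No member and 2.17% of all probe sets had an unadjusted p under 0.05. Of the members 21 were higher and 13 lower at 2 h, beside 50.6% and 49.4% of all probe sets, and their median was 0.16. It was 0.03 in the samples numbered 2 to 4 and 0.0137 after quantile normalization, and ran from -0.0574 to 0.34 with 1 sample left out. The smallest p values belonged to Mgat4d (-0.97 ± 0.50), Ddost (0.72 ± 0.40), Dpagt1 (0.67 ± 0.42) and Mgat4b (-0.29 ± 0.19), each with an adjusted p of 0.98. Mgat4b was the member with every 2 h sample below both 30 min samples (2.94% of members and 1.69% of all probe sets). No member had every 2 h sample above both, beside 3.77% of all probe sets. In the samples numbered 2 to 4 it was lower by 0.42 ± 0.17 on the log2 scale, with a single sample at 30 min (adjusted p = 0.936). Alg12 was at 0.42 ± 0.28 and Piga at 0.62 ± 0.81 (adjusted p = 0.98 for each). This comparison and the other 2 share samples, so their values are not independent.

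Values in single samples were described without a test. In the 4 h sample 17 of 34 members lay below all 4 non-wounded samples (28.3% of all probe sets did) and 7 above them (38.8%). Of these, 9 were lower and 1, Mgat3, was higher by 1 or more than the non-wounded mean, beside 17.3% and 6.18% of all probe sets. Against the non-wounded sample of the same number, 3 members were lower by 1 or more (8.51% of all probe sets were) and none higher (3.29%). These were Alg9 (3.85 against 5.53), Piga (4.42 against 6.07) and Uggt1 (5.40 against 7.03). Alg8 was at 4.47 against 5.43, Dpagt1 at 6.06 against 7.01 and the branching enzyme Mgat3, which adds the bisecting sugar, at 4.52 against 3.61. In the 0 h sample 12 members lay below all non-wounded samples (14.6% of all probe sets did) and 6 above (29.5%). By 1 or more from the mean these were 4 and 0, beside 5.38% and 0.963%. Against non-wounded sample 1, Piga was lower by 1 or more (4.94 against 6.07, 0.562% of all probe sets) and Alg1, which adds the first mannose, higher by 1 or more (7.01 against 5.97, 0.321%), while Dpagt1 was at 7.13. The median differences of the members from non-wounded sample 1 were -0.05 at 0 h and -0.11 at 4 h, beside 0.03 and 0.02 for all probe sets. After that scaling to a common median and SD, the 4 h median was -0.29, beside -0.06 for all probe sets, and Alg8 (-1.08) and Alg5 (1.17) also differed by 1 or more. At 0 h so did Alg6 (1.08).

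**Figure D4:**
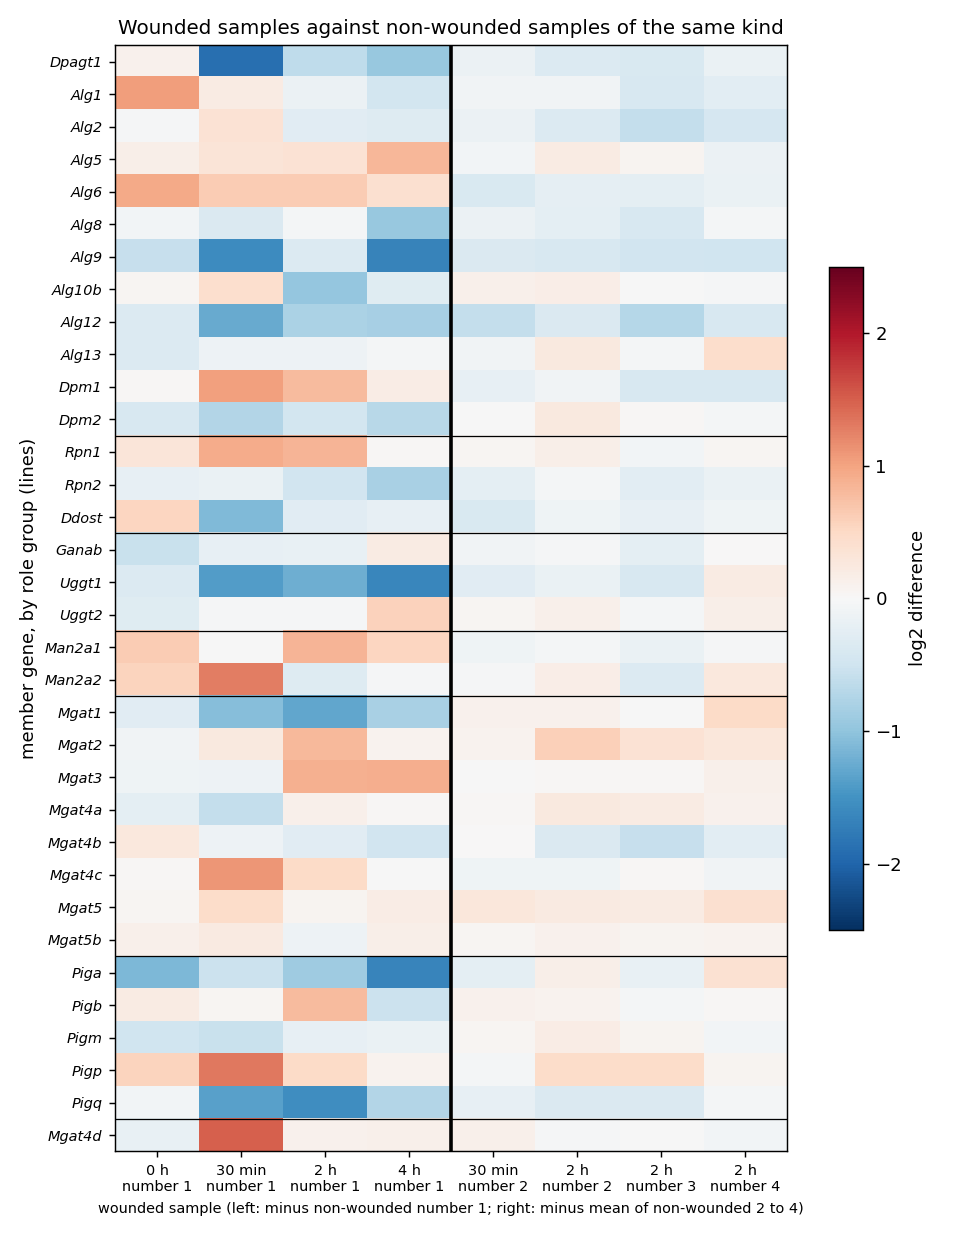
Log2 differences (colour scale) of the 34 members (rows, by role group) in the 8 wounded samples (columns), left of the black line from non-wounded sample 1 and right of it from the mean of non-wounded samples 2 to 4. Alg12 and Alg9 are blue, that is lower, in all 8 columns, and the strongest colours, from -1.89 to 1.496, lie in the samples numbered 1.

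Set against the non-wounded samples of their own kind, 5 members (Alg12, Alg8, Alg9, Pigq and Rpn2) were lower in all 8 wounded samples, or 14.7% of members beside 6.66% of all probe sets. Mgat5 alone was higher in all 8, or 2.94% of members beside 6.42%. Of the lower genes, 3 act in the ER lumen on the dolichol-linked chain, Rpn2 belongs to the enzyme that transfers it and Pigq to the first step of GPI synthesis. Differences ranged from -1.26 to -0.35 for Alg12 and from -1.67 to -0.34 for Alg9. For Rpn2 they ran from -0.82 to -0.05 and for Alg8 from -0.96 to -0.05, so that the smallest were within the spread of the non-wounded samples. The wounded samples share their reference here, so the 8 differences are not independent.

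Other genes of the pathway were read from a list of 42, of which 10 were measured by 11 probe sets. At 2 h 10 probe sets were lower and 1 higher (median -0.20), and at 30 min 9 were lower and 2 higher (median -0.39). None passed the limma test in either. Over all probe sets, 45.5% were lower at 2 h and 46.2% at 30 min. After quantile normalization 7 were lower and 4 higher at 2 h (median -0.05). At 30 min the direction then turned, with 4 lower and 7 higher (median 0.14). Of all 1246 probe sets, 662 and 619 were lower after that normalization. The smallest p values at 2 h were those of Pmm1 and Mpi. Pmm1, a phosphomannomutase, was at -0.99 ± 0.46 and Mpi, which makes mannose-6-phosphate, at -0.56 ± 0.32 (adjusted p = 0.998 for each). Without wounding Pmm1 lay between 7.46 and 8.66 and at 2 h between 6.09 and 7.22, so that these groups did not overlap. Every 2 h sample was likewise lower for 2.73% of all probe sets. At 30 min the smallest p values were those of Pmm1 at -1.47 ± 0.56, with 5.42 and 7.41 in samples 1 and 2, and of its relative Pmm2 at -0.55 ± 0.23 (adjusted p = 0.735 for each). Between 2 h and 30 min they were those of Fut8, which adds core fucose, at 0.68 ± 0.53 and of Pmm2 at 0.30 ± 0.23 (adjusted p = 0.98 for each).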

How the data were processed

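Total RNA was made into biotin-labelled cRNA for arrays, per the labels' protocols. The deposited values are log2 expression of 1246 probe sets in 12 samples, made by the authors with RMA, per the submitters' processing notes. For the array and the build, nothing is given in the sources used here. A log2 scale was read from the values. There is no detection call, and precision is limited by how few arrays there are. Probe sets were named by unversioned RefSeq accession (table of GRCm38.p6): 962 matched 1 symbol and 284 none.

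Groups and numbers came from the titles. Whether replicates were separate mice is not given, so the p-values rest on a spread among samples that may be technical only. limma 3.58.1 (R 4.3.3; lmFit, eBayes) was fitted to all 12 samples with group means, and p-values were adjusted by Benjamini-Hochberg over 1246 probe sets at a threshold of 0.05. Deviations from the group means of same-numbered non-wounded and 2 h samples correlated at 0.796, 0.449, 0.651 and 0.297 for numbers 1 to 4, above a limit of 0.1, so a replicate block was fitted. For numbers 2 to 4 alone they were -0.150, 0.0727 and -0.319, so the block mostly removes the gap of number 1. The members, gene lists and tests were chosen with earlier results of these data known. Genes chosen by a rule were Dpagt1, Alg12, Piga and the 4 members with the smallest p per comparison. To these were added the highest and lowest of each role group by mean level. Their values are given by sample, as a range or for some samples only. Other examples were the largest differences of a group, and any further gene was named after its values were seen. A summed marker level is the log2 of the sum of unlogged values over genes. The fits were checked on simulated data. Alternatives were other scalings, filters, weights and sample sets. Figures used matplotlib 3.10.9 in Python 3.11.15.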

Additional observations from a re-analysis of the deposited data

Results flagged for a closer look

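Among the 34 members, each in the non-wounded and the 2 h group of 4 samples, 18 of 68 sets had 1 sample far from the others by Dixon's test, where chance gives about 1 in 20, and in 17 of these the sample was the one numbered 1. The Dixon share over all probe sets is not given here, so the count is not particular to the members. Over all probe sets, non-wounded sample 1 was below its whole group for 30.7% and above it for 53.5%. For 2 h sample 1 these shares were 39.6% and 49.7%. In non-wounded sample 1 the low values were those of Alg6 (2.60), Man2a1 (5.71), Piga (6.07), Alg5 (5.23) and Alg9 (5.53). Non-wounded sample 2 was high for Dpagt1 (7.35, beside 7.01 to 7.02 in the others). At 2 h sample 1 was low for Alg10b (3.47), Ddost (6.17), Man2a1 (6.56), Pigq (5.86), Rpn2 (5.65) and Alg9 (5.19). It was high for Alg6 (3.23), Mgat3 (4.50), Pigb (4.87), Mgat4d (3.20), Mgat4c (3.00) and Mgat4a (3.81). Alg6 was thus the lowest of its group in non-wounded sample 1 and the highest in 2 h sample 1.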

How the results depend on the processing

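The count of members called was 0 in all 3 comparisons by limma and stayed 0 with the replicate block, after quantile normalization (with or without the block), median centring or scaling to one median and SD, with that scaling and the block together (added after seeing the data), over the compared groups only, without the dimmest probe sets, with an intensity trend, with 1 probe set per gene and at 0.01. At 2 h it was 3 with array weights (Alg12, Alg2 and Mgat4b, where 10.4% of all probe sets were called). In the samples numbered 2 to 4 it was 1, or 2.94% of members beside 3.05% of all probe sets. Leaving out 1 sample gave 0 to 0 at 2 h. In the comparisons with 30 min, some of these fits held a single 30 min sample, so their counts are not read. The median at 30 min moved between -0.50 and -0.0030. Quantile normalization with the block turned the median at 30 min to 0.0068 and that of 2 h against 30 min to -0.0298, where the scaling with the block gave -0.0116. At 4 h the median difference was -0.68 from the mean of the non-wounded samples and -0.11 from number 1 alone. With that scaling, the median at 2 h went from 0.03 to -0.06 over all probe sets and from -0.04 to -0.12 over the members.

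At 2 h Alg12 and Mgat4b kept their direction in every setting run, but Mgat4b went from -0.38 to -0.18 after quantile normalization. Reversed directions were Piga at 2 h with array weights (0.0619) and in numbers 2 to 4 (0.11), Man2a1 in the same settings (-0.18 and -0.0753), Rpn1 with array weights (-0.0037), and, in numbers 2 to 4, Mgat4c at 30 min (-0.12) and Dpagt1 for 2 h against 30 min (-0.14). With quantile normalization and the block, Man2a1 at 30 min (0.0604) and Piga for 2 h against 30 min (-0.0332) reversed. With 1 sample left out, values ran at 2 h from -0.51 to 0.49 for Piga, -0.54 to 0.62 for Man2a1 and -0.0754 to 0.77 for Pigp. At 30 min they ran from -1.66 to 0.13 for Piga, -2.09 to 0.59 for Man2a1 and -0.18 to 1.29 for Mgat4c. For 2 h against 30 min they ran from -0.25 to 1.59 for Dpagt1, -0.0181 to 0.85 for Alg12, -0.27 to 1.52 for Piga and -1.97 to 0.0398 for Mgat4d. The cause was not tested.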
